A study of Mus musculus with 4 samples.

Results

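Astrocytes of the ventromedial prefrontal cortex (vmPFC) were the 495 cells annotated as Astro among the 20047 annotated cells of a MERGE-seq experiment, which reads the transcriptome of single cells together with virus barcodes that mark where their axons end. The astrocytes were chosen by the cell type that the authors gave to each cell from its transcriptome. No barcode value entered that label. The annotated cells are, however, those left after the authors removed the top 5 percent of each library by barcode UMIs. They came from male C57BL/6 mice injected at 8 weeks of age on 1 side of the brain with 5 rAAV2-retro viruses, each of which carried EGFP and its own barcode under a short CAG promoter. The viruses went to the agranular insular cortex (AI), dorsomedial striatum (DMS), mediodorsal thalamus (MD), basolateral amygdala (BLA) and lateral hypothalamus (LH), and the prelimbic and infralimbic cortex was dissociated 6 weeks later. Cells of 3 mice were loaded without sorting as 1 library per mouse, and EGFP-positive cells pooled from 3 other mice were loaded after FAC-sorting as 1 more library. All mice carried all 5 viruses, and no uninjected mouse was analysed here. The labels describe every library as retrogradely labelled vmPFC neurons, although the unsorted libraries hold all cell types of the tissue. All 495 astrocytes fell into 1 louvain cluster of the deposited annotation, which held 505 cells, the other 10 being 7 excitatory neurons, 2 oligodendrocytes and 1 microglial cell. The label was not set against the astrocyte markers Aqp4 and Gfap, since expression per gene was not analysed here.

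Astrocytes are the glial cells that take up glutamate and potassium around synapses and reach blood vessels with endfeet rich in the water channel Aqp4. Gfap, an intermediate filament protein, is their best-known cytoskeletal marker. The rAAV2-retro capsid is taken up by axon terminals and carried back to the cell body, so that it is used to mark projection neurons, and astrocytes send no axons to distant targets. The study took non-neuronal cells, astrocytes among them, as a negative control that should hold no projection barcode, and sorted cells without EGFP counts as another, and for each barcode used the higher of the thresholds they gave. The barcode counts of astrocytes therefore describe the level of the assay in cells of 1 of its negative controls.

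The measured molecules were transcripts that carry 1 of the 5 designed barcodes of 15 bases, shown here because every count described next is a count of molecules matched to 1 of these letters in full or with up to 2 mismatches.
AI: ctgcaccgacgcatt
DMS: gaaggcacagacttt
MD: gttggctgcaatcca
BLA: aagacgccgtcgcaa
LH: tattcggaggacgac
A UMI is a random tag put on each cDNA molecule before amplification, so that reads of the same molecule count once. In astrocytes the barcode of DMS gave the most UMIs in all 3 mice and the barcode of BLA the fewest. The projectome libraries, which amplify the barcode transcripts, had 20443286, 30613665 and 32895529 reads in unsorted mice 1, 2 and 3, or 2542, 4115 and 4544 reads per recovered cell. Mouse 1 was thus the shallowest library, and values that follow depth are given for each mouse. The authors' tables list a single UMI as 0 for DMS, MD, BLA and LH but keep it for AI. In astrocytes this affected 467 of 1980 entries, a recount from the reads matched every other entry exactly, and 115 of 495 AI entries were listed as 1.

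There were 167 astrocytes in mouse 1, 143 in mouse 2 and 185 in mouse 3, and the FAC-sorted library held 0. They were 2.52% of the 6614 annotated cells of mouse 1 (exact binomial 95% interval, 2.16% to 2.93%), 2.40% of 5966 in mouse 2 (2.02% to 2.82%) and 3.20% of 5775 in mouse 3 (2.76% to 3.69%). The share was 2.71% ± 0.433 (SD, n = 3), with mouse 3 above the interval of mouse 2. Among non-neuronal cells alone they were 4.77%, 4.49% and 6.05%, which made them the smallest non-neuronal type but for activated microglia, with 84 cells in the 3 unsorted libraries. The FAC-sorted library had 0 astrocytes of 1692 annotated cells, which allows a share of up to 0.177%. Only 73 of its cells were non-neuronal, so that up to 4.11% of these could have been astrocytes, a limit within the range of the intervals of mice 1 and 2. Intervals and limits of this kind cover counting error only. The shares describe cells that survived dissociation and the authors' filters, and no astrocyte cell barcode was shared between unsorted libraries as an astrocyte. The cell barcodes of 2 astrocytes also occurred as annotated cells of another library.

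Astrocytes had a low median of RNA UMIs, nearly the same in each mouse, and the lowest share of ribosomal protein transcripts of any type. The median astrocyte had 3395, 3385 and 3359 RNA UMIs in mice 1, 2 and 3, or 3380 ± 18.6 (SD, n = 3). Endothelial cells were the only non-neuronal type with a lower median, 3042 ± 154, and excitatory neurons had a median of 21589 ± 833. Single astrocytes ranged from 1011 to 14807 RNA UMIs over the 3 mice. Oligodendrocyte precursor cells (OPC), the dividing glia that give rise to oligodendrocytes, had 823 ± 165 more RNA UMIs at the median than astrocytes of the same library. Oligodendrocytes, which form myelin, had 1371 ± 170 more, microglia, the resident immune cells, 796 ± 137 more, and activated microglia 1552 ± 460 more, each in 3 of 3 mice. The median of endothelial cells, which line the vessels, was 337 ± 171 below that of astrocytes in 3 of 3 mice, but their mean was 1221 ± 543 above it, with single endothelial cells of up to 41587 RNA UMIs.

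The number of genes detected in astrocytes was intermediate. The median was 1774, 1754 and 1739 detected genes in mice 1, 2 and 3. OPC had 599 ± 51.2 and oligodendrocytes 232 ± 51.4 more genes than astrocytes, while endothelial cells had 166 ± 60.4 and microglia 115 ± 42.6 fewer, each in 3 of 3 mice. Genes detected rise with RNA UMIs, so the types were also compared among cells with 2000 to 5000 RNA UMIs, which held 76.6%, 86.7% and 79.5% of the astrocytes. In that window astrocytes had a median of 1768 ± 5.11 genes, OPC 2234 ± 8.67, oligodendrocytes 1831 ± 13.3, activated microglia 1632 (1616 to 1648 over the mice), microglia 1552 ± 8.08 and endothelial cells 1517 ± 6.38. Astrocytes thus held the third place of 6 in each mouse, although the window narrows the difference in size and does not remove it. Within it the median was 3413 RNA UMIs in astrocytes, 3903 in OPC, 4118 in activated microglia, 4243 in oligodendrocytes, 3811 in microglia and 2825 in endothelial cells. Over all cells, astrocytes had 26.5 more genes than activated microglia in mouse 1 and fewer in mice 2 and 3, with no common direction.

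Mitochondrial transcripts made up a median of 9.00%, 8.27% and 8.50% of the RNA UMIs of astrocytes in mice 1, 2 and 3. This was above the median of OPC by 1.42 ± 0.385 percentage points, of microglia by 1.43 ± 0.356 and of endothelial cells by 1.50 ± 0.291, in 3 of 3 mice each. Oligodendrocytes were higher still, by 2.16 ± 0.550 points in 3 of 3 mice. Against activated microglia the difference was 0.0545 ± 1.05 points, higher in 2 of 3 mice and smaller than the spread between mice. The authors' filter kept cells below a fixed mitochondrial share, and the highest astrocyte had 18.8%.

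Transcripts of ribosomal proteins, the protein part of the translation machinery, took a median of 2.15%, 2.24% and 2.44% of the astrocyte RNA UMIs. The next lowest type, OPC, had 3.78%, 3.98% and 4.22%, so that the 2 types did not overlap between mice. Oligodendrocytes had 5.06% ± 0.166 (SD, n = 3), excitatory neurons 5.60% ± 0.226, endothelial cells 7.82% ± 0.360, activated microglia 12.8% ± 0.950 and microglia 16.1% ± 0.605. Astrocytes were the lowest of the 6 non-neuronal types in 3 of 3 mice, 1.72 ± 0.0748 percentage points below OPC. This column was added after the annotation had been opened, and was given no test.

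**Figure D1:**
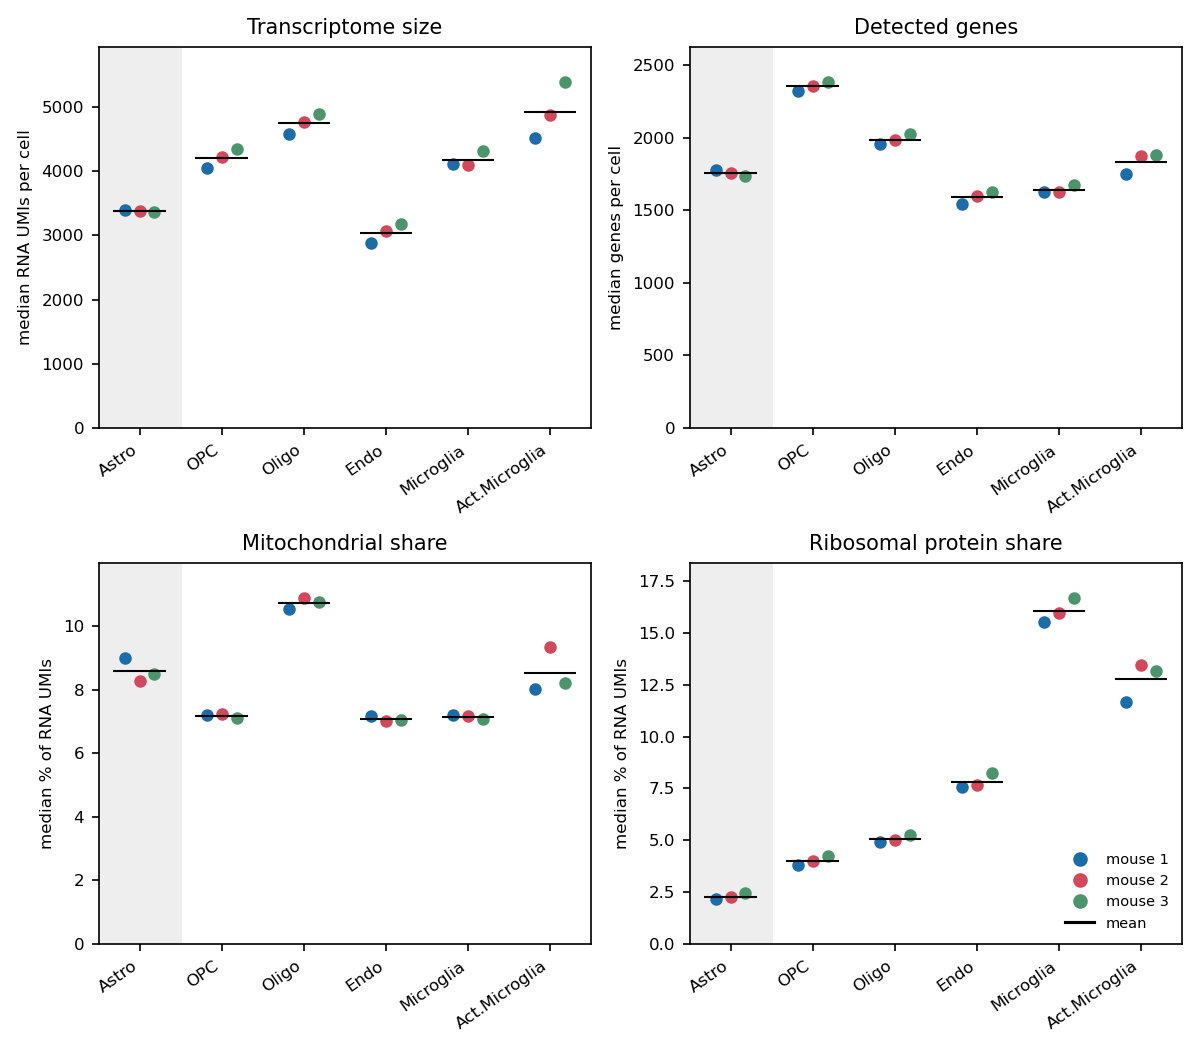
Medians over cells of RNA UMIs, detected genes, percent mitochondrial and percent ribosomal protein UMIs (vertical axes) for the 6 non-neuronal types (horizontal axis), with 1 point per unsorted mouse and a bar at their mean; astrocytes are shaded. Astrocytes sit at 3359 to 3395 RNA UMIs and 1739 to 1774 genes, and at 2.15% to 2.44% ribosomal protein UMIs they are below every other type.

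Most astrocytes held a few barcode molecules. In the authors' tables an astrocyte had on average 4.86, 7.71 and 7.45 barcode UMIs in mice 1, 2 and 3, or 6.67 ± 1.58 (SD, n = 3), with medians of 4, 6 and 6. Mouse 1, with the fewest reads per cell, was the lowest. Once reads were thinned to 2542 per recovered cell, the recounted means were 5.88, 5.85 and 5.05, and the spread between mice fell from 1.52 to 0.469. Excitatory neurons, the cells the viruses are meant to mark, had 99.5 ± 16.1 barcode UMIs and inhibitory neurons 24.1 ± 6.36. These are values of cells left after the authors removed the top 5 percent of each library by barcode UMIs. In the recount, 163 of 167 astrocytes of mouse 1 and all astrocytes of mice 2 and 3 had at least 1 barcode UMI, or 99.2% ± 1.38, beside 97.7% ± 1.54 of endothelial cells and 99.6% ± 0.0761 of OPC. In excitatory neurons the share was 99.8% ± 0.0508. In the authors' tables, where single UMIs of all barcodes but AI are listed as 0, 85.6%, 95.8% and 95.7% of the astrocytes of mice 1, 2 and 3 had a barcode UMI, and the difference from endothelial cells was 7.10 ± 3.27 percentage points in place of 1.48 ± 0.286.

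Per cell, astrocytes had the lowest mean of the 6 non-neuronal types in each of the 3 mice. They were below oligodendrocytes by 2.18 ± 1.12 UMIs, OPC by 1.87 ± 1.16, activated microglia by 1.33 ± 1.39, microglia by 0.941 ± 0.588 and endothelial cells by 0.670 ± 0.390, in 3 of 3 mice each. The difference from activated microglia in mouse 2 was 0.0245 UMIs. This order belonged to the mean over all cells. Among cells with 2000 to 5000 RNA UMIs, astrocytes had 6.67 ± 1.79 UMIs, which was 2.21 ± 0.773 above endothelial cells and 0.980 ± 0.193 above oligodendrocytes in 3 of 3 mice, while OPC with 7.20 ± 1.94 and microglia with 7.11 ± 2.03 stayed above astrocytes. Against activated microglia the difference in that window was -0.277 ± 0.961, smaller than its spread between mice. In mouse 2 it turned, with 7.74 UMIs in astrocytes and 6.92 in activated microglia. The median over all cells, recounted, was 5, 8 and 7 UMIs in astrocytes, the same as in oligodendrocytes in each mouse and 1.33 ± 0.577 above endothelial cells.

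Relative to their RNA UMIs, astrocytes had the highest mean of the 6 types in the authors' tables. They had 1.35, 2.28 and 2.20 barcode UMIs per 1000 RNA UMIs in mice 1, 2 and 3, or 1.94 ± 0.514. The ratio was above that of activated microglia by 0.472 ± 0.220, endothelial cells by 0.386 ± 0.208, oligodendrocytes by 0.384 ± 0.191 and microglia by 0.123 ± 0.0339, in 3 of 3 mice each. Against OPC the difference was 0.0305 ± 0.0660, with astrocytes higher in 2 of 3 mice. Among cells with 2000 to 5000 RNA UMIs the difference was 0.252 ± 0.258 against activated microglia, smaller than its spread between mice, 0.0673 ± 0.0457 against microglia, 0.594 ± 0.142 against oligodendrocytes, 0.495 ± 0.198 against endothelial cells and 0.0856 ± 0.0740 against OPC, with astrocytes higher in 3 of 3 mice each. Over all cells in the recount, which keeps single UMIs of all barcodes, the difference from OPC was 0.0946 ± 0.0736, and astrocytes had the highest ratio of the 6 types in each mouse. When UMIs of at least 2 reads were counted, which lowered the level of astrocytes itself from 7.62 to 1.63 UMIs per cell, the differences were 0.139 ± 0.0540 against activated microglia, 0.0260 ± 0.0587 against oligodendrocytes, 0.0496 ± 0.0748 against endothelial cells, 0.0361 ± 0.0224 against microglia and -0.0237 ± 0.0767 against OPC. Those from oligodendrocytes, endothelial cells and OPC were smaller than their spread between mice. With the median over cells of the ratio per cell, the difference from microglia was 0.00448 ± 0.0398. Among cells with 5000 RNA UMIs or more, the recounted ratio of astrocytes was not the highest in any mouse. It was 1.422, 1.94 and 1.87 in the 21, 6 and 13 such astrocytes of mice 1, 2 and 3. Oligodendrocytes had 1.426, 2.26 and 1.73 there, and OPC 1.31, 2.25 and 2.59. Under 2000 RNA UMIs astrocytes were the highest in mice 2 and 3, whereas in mouse 1 OPC had 2.94 and astrocytes 2.24. Over all cells, inhibitory neurons had 1.68 ± 0.370 per 1000 RNA UMIs and excitatory neurons 4.65 ± 0.600. Among cells with 2000 to 5000 RNA UMIs, inhibitory neurons had 1.75, 3.02 and 4.06 in mice 1, 2 and 3. Astrocytes had 1.36, 2.30 and 2.24 there, lower in 3 of 3 mice, although the window held only 31, 34 and 19 inhibitory neurons. Of the 30 comparisons between astrocytes and another non-neuronal type, 24 had the same direction in 3 of 3 mice, each with an exact two-sided sign-flip p of 0.25, the smallest that 3 mice allow, and an adjusted p of 0.3125. This test cannot pass 0.05 with 3 mice, so that the sizes beside the SD over mice carry the description.

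**Figure D2:**
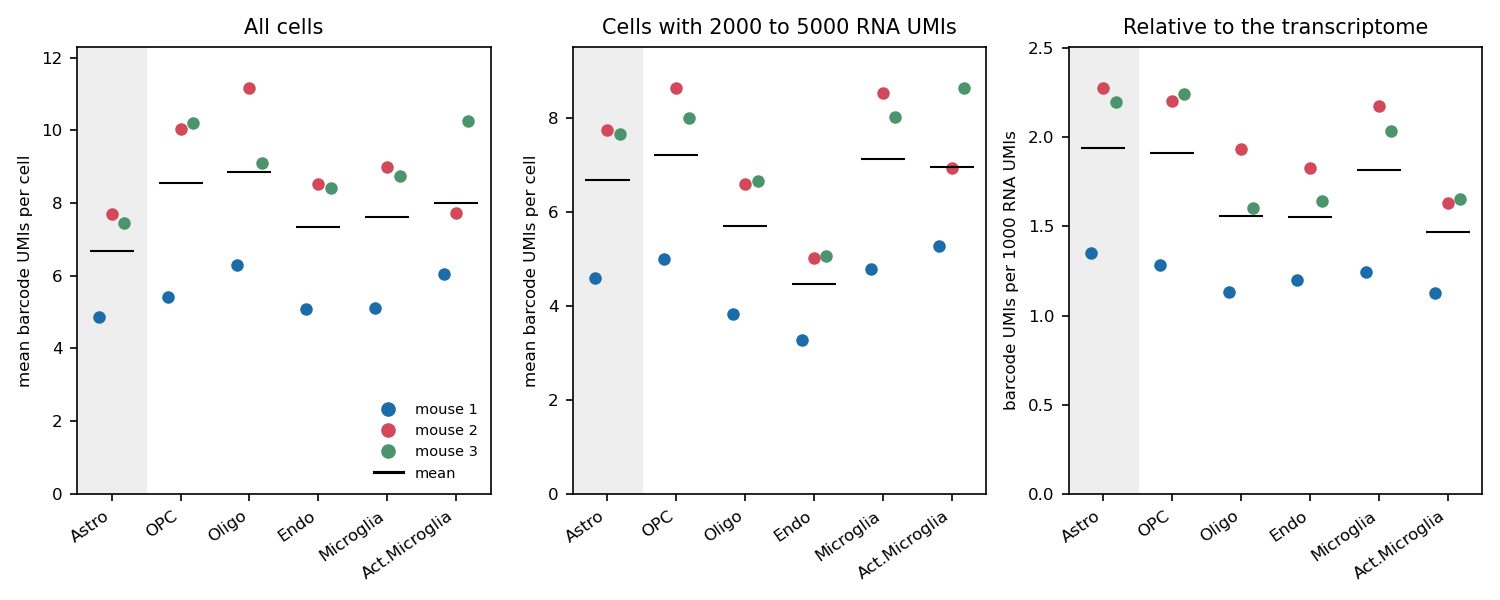
Mean barcode UMIs per cell over all cells (left) and over cells with 2000 to 5000 RNA UMIs (middle), and barcode UMIs per 1000 RNA UMIs (right), for the 6 non-neuronal types, with 1 point per unsorted mouse and a bar at the mean. Astrocytes, shaded, average 6.67 UMIs per cell in the left and in the middle panel, whereas endothelial cells drop from 7.34 to 4.45, and astrocytes have the highest mean in the right panel at 1.94.

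Within astrocytes, barcode UMIs rose with RNA UMIs, but less than in proportion. The recounted mean was 3.22, 5.23 and 5.36 UMIs in astrocytes with under 2000 RNA UMIs, 5.64, 8.70 and 8.44 in those from 2000 to 5000, and 9.62, 15.3 and 12.5 in those with more, for mice 1, 2 and 3. Per 1000 RNA UMIs the same groups went from 2.24, 3.72 and 3.60 through 1.67, 2.58 and 2.46 to 1.42, 1.94 and 1.87. The order was the same in each mouse, although the lowest group held 18, 13 and 25 cells and the highest 21, 6 and 13. Across the astrocytes of a library, Spearman's rho between RNA UMIs and recounted barcode UMIs was 0.47 over 167 cells, 0.40 over 143 and 0.48 over 185. Cells of 1 library share its preparation and depth, so these are descriptions with no test. OPC had rho of 0.43 to 0.46 in the 3 mice and endothelial cells of 0.50 to 0.65.

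**Figure D3:**
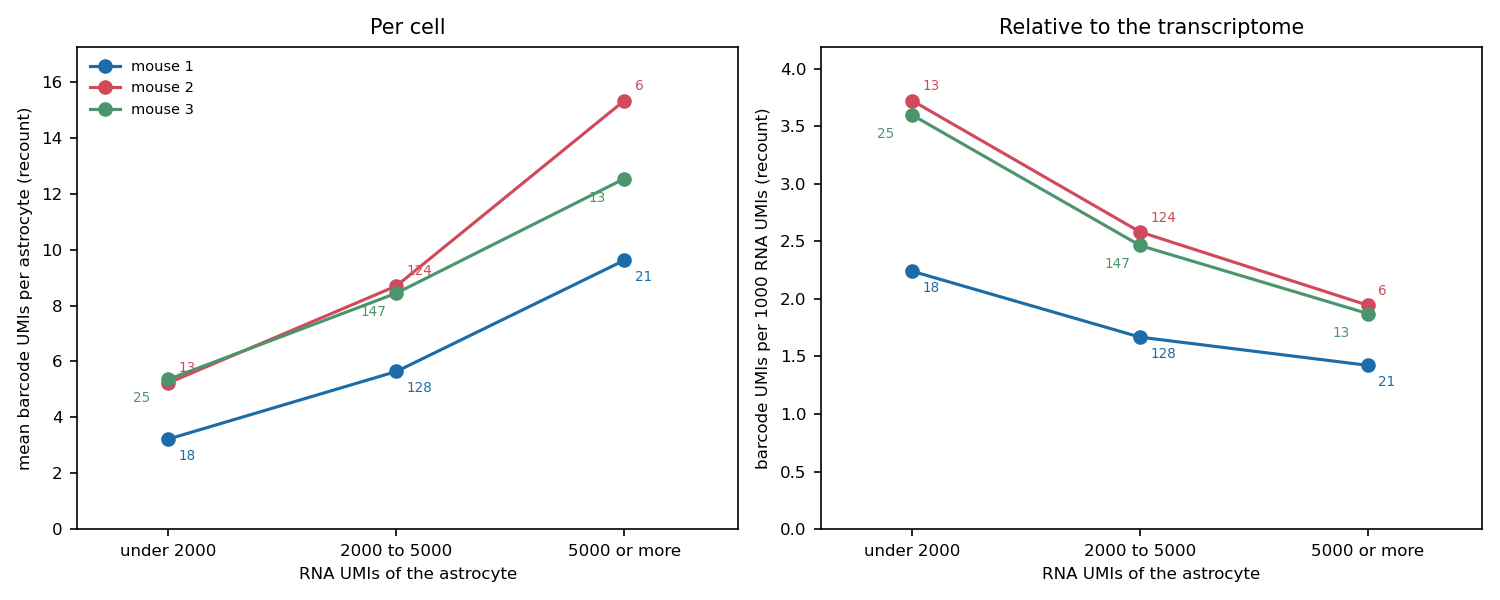
Recounted barcode UMIs per astrocyte (left) and per 1000 RNA UMIs (right) for astrocytes in 3 groups of RNA UMIs (horizontal axis), with 1 line per unsorted mouse and the number of astrocytes beside each point. Counts per cell rise from 3.22 to 9.62 in mouse 1 while the ratio falls from 2.24 to 1.42, with the same order in mice 2 and 3.

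The highest astrocyte of mice 1, 2 and 3 had 35, 37 and 44 barcode UMIs. At the 90th percentile astrocytes had 9, 13 and 14 UMIs, close to the 9, 15 and 15 of microglia and the 10, 16 and 17 of OPC. A count above 44, the maximum over the astrocytes and a level set by them, was seen in 51.5% of excitatory neurons, 7.93% of inhibitory neurons, 21 of 1762 oligodendrocytes (1.19%), 25 of 2738 endothelial cells (0.913%), 13 of 1776 OPC (0.732%), 10 of 2894 microglia (0.346%) and 0 of 84 activated microglia, which allows up to 3.57%. The highest activated microglia of mice 1, 2 and 3 had 19, 19 and 32 UMIs. These shares are a description, since no astrocyte could lie above the level, and they were given no comparison with astrocytes. The single highest cell had 358, 325 and 298 UMIs in oligodendrocytes and 310, 331 and 293 in endothelial cells of mice 1, 2 and 3, types with more cells than astrocytes. The variance of the count over astrocytes was 5.27, 3.58 and 5.20 times the mean, beside 59.4, 53.6 and 30.3 times in oligodendrocytes. Microglia had 4.66, 7.69 and 4.83 times, above astrocytes in mouse 2 and slightly below them in mice 1 and 3, and OPC had 5.31, 17.3 and 33.7 times. The variance of activated microglia was 3.33, 2.93 and 5.55 times the mean over 30, 26 and 28 cells. The authors had removed the top 5 percent of each library by barcode UMIs, a level that lay at 404, 486 and 529 UMIs, 11.5 to 13.1 times the highest astrocyte. Astrocytes above that level, if any, are not among the 495. The highest excitatory neurons kept had 402, 485 and 528 UMIs, so the neuronal values also leave out cells above it.

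**Figure D4:**
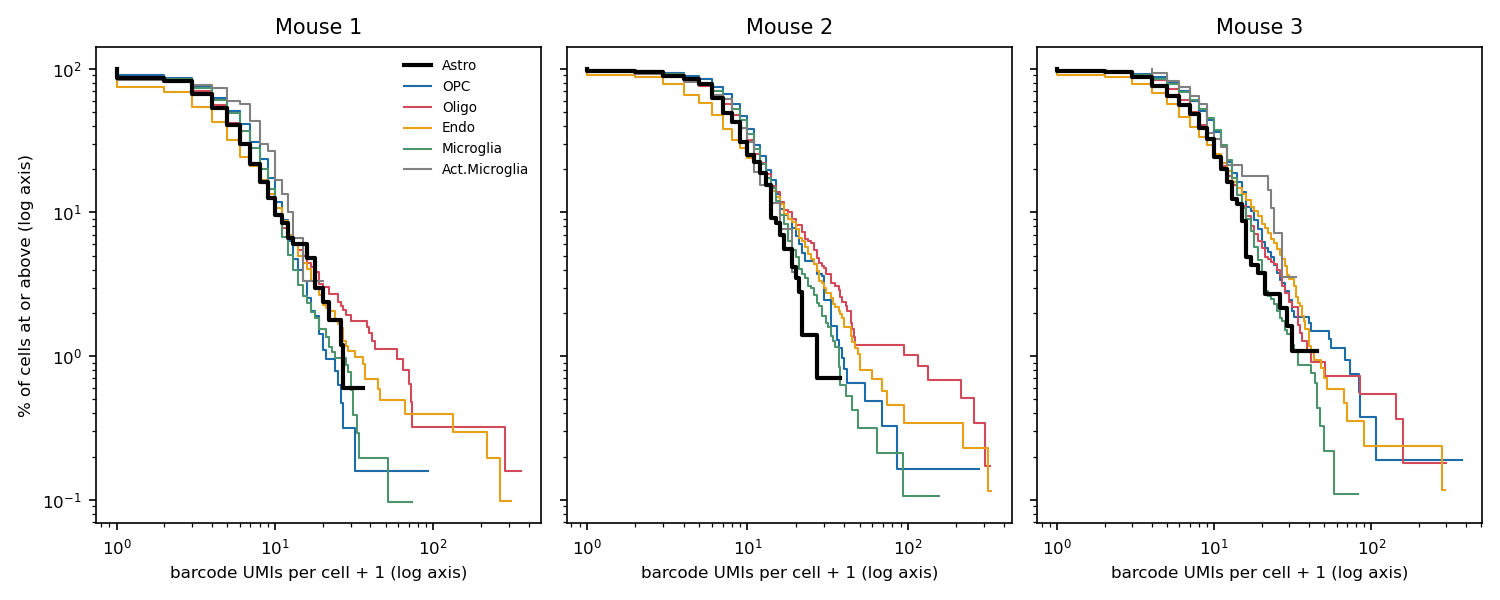
Percent of cells at or above a number of barcode UMIs (vertical axis, log) against that number plus 1 (horizontal axis, log) for the 6 non-neuronal types in unsorted mice 1, 2 and 3, from the authors' tables. At 9 UMIs the thick astrocyte line is at 12.6%, 30.8% and 32.4% in mice 1, 2 and 3. OPC are higher there, at 17.3%, 46.9% and 43.7%, as are microglia, at 14.5%, 44.2% and 45.5%. Endothelial cells are close, at 13.5%, 28.1% and 29.2%. The astrocyte line ends at 35, 37 and 44 UMIs, while oligodendrocytes and endothelial cells reach 293 or more.

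The highest astrocytes differed in make-up. That of mouse 1 had 21 UMIs of AI, 7 of DMS, 3 of MD and 4 of LH in a cell of 2865 RNA UMIs. Without it the highest AI count of mouse 1 was 5, the variance of the AI count went from 6.03 to 1.52 times its mean, and the mean from 0.521 to 0.398 UMIs per cell. The highest astrocyte of mouse 2 had 20 UMIs of DMS and 8 of AI among 37. In mouse 3, a pair of astrocytes tied at 44 UMIs, the first with 25 of DMS and 12 of MD, the second with 31 of DMS and 4 of MD. None of these cells was large, at 2760 to 3970 RNA UMIs, and each had between 9.32 and 15.9 barcode UMIs per 1000 RNA UMIs.

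Over all 3 mice, no astrocyte exceeded 21 UMIs of AI, 31 of DMS, 12 of MD, 4 of BLA or 10 of LH. The lowest count kept in the joined matrix of the authors, where lower counts were set to 0, was 29 UMIs of AI, 102 of DMS, 115 of MD, 36 of BLA and 104 of LH. The highest astrocyte thus reached 72.4% of the lowest kept count for AI, 30.4% for DMS, 11.1% for BLA, 10.4% for MD and 9.62% for LH. AI was the barcode with the narrowest gap, 8 UMIs, and without the highest astrocyte of each mouse its maximum was 6. All 5 entries of all 495 astrocytes were 0 in the joined matrix, and 0 were called barcoded, which allows a share of up to 0.606%. Since non-neuronal cells were 1 of the controls behind the thresholds, each of which was at or above the level these cells gave, this count is partly fixed by the procedure and is no independent result. The paper also called only a few endothelial cells, OPC and oligodendrocytes barcoded, of 2738, 1780 and 1773 cells. The limit of 0.606% does not set astrocytes apart from these types.

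The barcode UMIs of astrocytes were dominated by DMS. In the authors' tables DMS made up 62.9%, 63.1% and 68.0% of the astrocyte barcode UMIs in mice 1, 2 and 3, MD 12.5%, 14.1% and 16.2%, LH 12.8%, 11.3% and 7.32%, AI 10.7%, 10.4% and 7.32%, and BLA 1.11%, 1.09% and 1.09%. In all cells of the same libraries DMS held 47.6%, 47.7% and 47.4%, MD 19.8%, 20.2% and 21.4%, and BLA 4.05%, 5.08% and 4.90%. In excitatory neurons DMS held 44.2% ± 0.710 (SD, n = 3) and MD 24.2% ± 0.394. The astrocyte values of DMS lay above and those of MD below those of excitatory neurons in 3 of 3 mice. Inhibitory neurons were nearer to astrocytes, with 58.8% ± 2.07 for DMS and 16.6% ± 1.23 for MD. The other non-neuronal types were like astrocytes, with 60.9% to 65.2% for DMS on average.

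Part of this make-up came from the single UMIs listed as 0 in the tables. In the recount DMS held 57.8% ± 3.56 of the astrocyte barcode UMIs, MD 16.8% ± 1.49, LH 13.7% ± 3.15, AI 8.24% ± 1.46 and BLA 3.47% ± 0.606. BLA thus went from 1.10% to 3.47% with the counting rule alone, while in excitatory neurons it went from 4.10% to 4.31%. The share of DMS stayed above that of excitatory neurons, 44.0% ± 0.721 in the recount. In inhibitory neurons it was 57.2% ± 2.55, near the astrocyte value.

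In the recount, which keeps single UMIs, most astrocytes carried molecules of several barcodes. In the recount 92.8%, 97.2% and 97.8% of the astrocytes of mice 1, 2 and 3 had at least 1 UMI of DMS, 54.5%, 74.1% and 73.0% of MD, 57.5%, 67.1% and 53.0% of LH, 26.9%, 47.6% and 38.4% of AI, and 20.4%, 25.9% and 19.5% of BLA. Many of these were single UMIs, which the authors' tables list as 0 for all barcodes but AI. In mice 1, 2 and 3 such single UMIs were 31 of 34, 31 of 37 and 29 of 36 detections of BLA. They were 52 of 91, 48 of 106 and 60 of 135 for MD, and 59 of 96, 50 of 96 and 58 of 98 for LH. For DMS they were 29 of 155, 8 of 139 and 12 of 181. An astrocyte had on average 2.52, 3.12 and 2.82 different barcodes in the recount, and 6, 18 and 10 astrocytes had all 5. In the same mice OPC had 2.71, 3.23 and 3.13 different barcodes, above astrocytes in 3 of 3 mice, and endothelial cells had 2.25, 2.85 and 2.74, below them in 3 of 3 mice. The median RNA UMIs of these types had the same order, at 4203 in OPC, 3380 in astrocytes and 3042 in endothelial cells. That order did not extend to the other types. Oligodendrocytes, with a median of 4751 RNA UMIs, had 2.45, 3.10 and 2.93 different barcodes, below astrocytes in mice 1 and 2. Microglia, with a median of 4176, had 2.59, 3.11 and 3.03, and activated microglia, with 4932, had 2.53, 2.88 and 3.18. Both were below astrocytes in mouse 2. Excitatory neurons had 4.58 ± 0.146. For BLA, the rarest barcode, 21.9% ± 3.47 of astrocytes and 23.5% ± 5.77 of OPC had a UMI, beside 74.5% ± 7.03 of excitatory neurons.

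**Figure D5:**
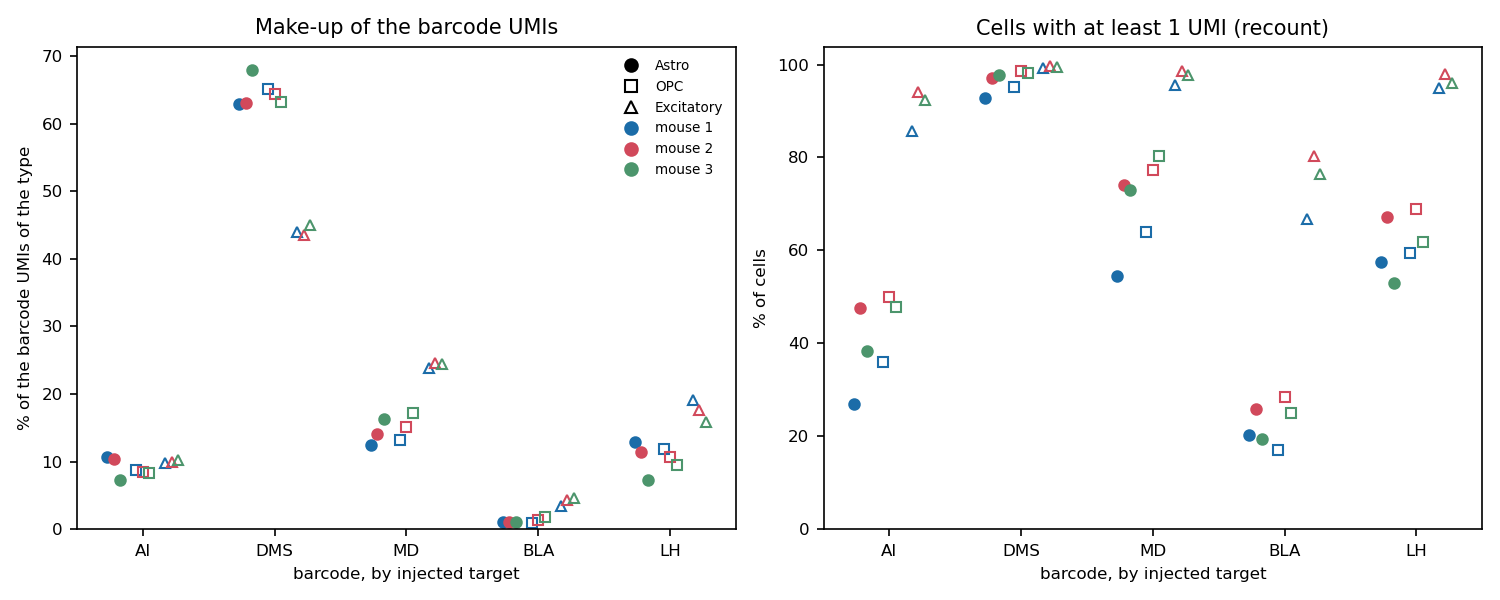
Percent of a type's barcode UMIs in the authors' tables (left) and percent of cells with at least 1 recounted UMI (right) for the 5 barcodes (horizontal axis) in astrocytes, OPC and excitatory neurons, with 1 point per unsorted mouse. DMS holds 62.9% to 68.0% of the astrocyte UMIs and about 44% of those of excitatory neurons, and BLA is found in 19.5% to 25.9% of astrocytes.

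The molecules behind these counts were thinly read. Astrocytes held 982, 1239 and 1538 combinations of cell, barcode and UMI in mice 1, 2 and 3, read on average 3.82, 3.74 and 4.31 times. Those with a single read were 82.5%, 78.5% and 76.1%, beside 60.3%, 59.2% and 57.0% in excitatory neurons, which had 31.4 ± 4.06 reads per combination. The other non-neuronal types were near astrocytes, which had 79.0% ± 3.21 over the mice. They ranged from 74.0% ± 1.99 in oligodendrocytes to 79.8% ± 4.63 in activated microglia. Combinations with 10 reads or more were 1.68% ± 0.589 in astrocytes and 16.2% ± 1.16 in excitatory neurons. When UMIs of at least 2 reads were counted, an astrocyte had 1.63 ± 0.520 barcode UMIs on average in place of 7.62 in the full recount.

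A UMI was seen beside a second barcode within its cell in 5.60%, 5.33% and 7.67% of the astrocyte combinations, beside 40.3% ± 1.28 in excitatory neurons, 11.1% ± 1.49 in endothelial cells and 8.87% ± 3.72 in OPC. Oligodendrocytes had 13.7% ± 1.22, microglia 7.43% ± 0.379 and activated microglia 4.73% ± 2.83, a lower mean than the 6.20% ± 1.28 of astrocytes. The same barcode and UMI occurred in another cell of the library for 1.32%, 2.26% and 2.67% of the astrocyte combinations and for 1.90% ± 0.187 of those of excitatory neurons, a difference smaller than the spread between mice. Astrocytes made up 2.71% of the annotated cells and held 0.449% ± 0.0629 of the combinations and 0.0643% ± 0.0109 of the matched reads of these cells. Where the barcode molecules of astrocytes came from was not tested.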

How the data were processed

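The 3 unsorted mice are the replicates, cells are not, and the spread between mice gives each SD. Reads were aligned by the authors with Cell Ranger and filtered for detected genes, total UMIs and mitochondrial share. The deposited annotation gives counts of RNA UMIs and genes per cell and the percent of mitochondrial and ribosomal protein UMIs. The authors' barcode tables give UMI counts per cell and barcode without normalization, made with a modified deMULTIplex, and each line of the deposited read lists is 1 read. No doublet caller was run here. From the reads, different UMIs per cell and barcode were recounted with up to 2 mismatches. Types were compared within library by exact sign-flip tests (two-sided, 3 mice) with Benjamini-Hochberg adjustment over 30 comparisons. Intervals are exact binomial (Clopper-Pearson), with a limit of 3 counts where none was seen. Another 5 columns of the annotation, such as other cluster labels, were not used. The text names all 5 barcodes, the 6 non-neuronal types, both neuron classes for scale, and the highest astrocytes of each library. The members and measures were chosen with earlier results of these data known. The counting functions recovered 4 of 4 known answers when tested on simulated data. Python 3.11.15, numpy 2.4.6, pandas 2.3.3, scipy 1.17.1 and matplotlib 3.10.9 were used.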

Additional observations from a re-analysis of the deposited data

How the results depend on the processing

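The alternatives were leaving out each mouse, cells with 2000 to 5000 RNA UMIs, cells above the 99th percentile of RNA UMIs left out, means for medians, the recount from reads, exact matches, UMIs of at least 2 reads, thinned reads, shared UMIs given to 1 barcode and, for the ratio to RNA, the median over cells. The median of recounted UMIs was added after the data had been seen. Of 235 alternative values of the 30 differences, 210 kept their direction. For the 24 differences with the same direction in 3 of 3 mice, leaving out a mouse could not turn it. Those values were fixed in advance and say nothing about stability. Types were paired by mouse in the 30 tested differences, and the FAC-sorted library shares no replicate number with the unsorted ones. The means over cells put astrocytes below endothelial cells by -1221 RNA UMIs and -246 genes. In the window of 2000 to 5000 RNA UMIs, the differences turned to 136 genes and -0.296 percentage points mitochondrial against activated microglia, 0.980 barcode UMIs against oligodendrocytes and 2.21 against endothelial cells, and, for cells with a barcode UMI, to 0.129 points against OPC and -0.260 against activated microglia. The mitochondrial difference from activated microglia was -0.0948 without the largest cells and -0.402 to 0.629 with a mouse left out. The median of recounted UMIs differed from oligodendrocytes by 0 and from endothelial cells by 1.33. With UMIs of at least 2 reads, the ratio to RNA differed from OPC by -0.0237, and the share of cells with a UMI by -2.69 points from oligodendrocytes and -0.122 from microglia. Thinned reads turned that share to -1.08 against oligodendrocytes, -0.364 against microglia and -0.419 against activated microglia, and the authors' tables to -0.797, -0.984 and -0.793. With a mouse left out it ran from -0.797 to 0.351 against OPC, from -0.0794 to 0.341 against oligodendrocytes and from 0 to 0.469 against activated microglia.

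Of 121 alternative values of the 14 astrocyte levels, 37 moved by more than the SD over mice. The share was 5.10% of non-neuronal cells, and UMIs of at least 2 reads gave 1.63 UMIs per cell. DMS held 57.8% of the UMIs in the recount, 57.9% with exact matches, 58.4% with at least 2 reads, 57.8% with thinned reads and 58.9% with shared UMIs given to 1 barcode. Combinations with 1 read were 82.5% after thinning. The other moved values were single barcodes. The cause of these changes was not tested beyond the construction of each alternative. The sign-flip test gives no p below 0.25 with 3 mice, so that its threshold says nothing about stability. In the full recount, where nearly every cell of each type had a UMI, the differences in that share from OPC, oligodendrocytes and activated microglia were under their SD over mice. Against OPC the share was lower in astrocytes in 3 of 3 mice with thinned reads, in the authors' tables and with UMIs of at least 2 reads. The differences were -1.60 ± 0.298, -2.42 ± 1.61 and -6.91 ± 4.09 points, in that order.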

Other observations

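Across the astrocytes of a library, detected genes followed RNA UMIs closely, with Spearman's rho of 0.97 to 0.98 over 143 to 185 cells in the 3 mice. The mitochondrial share went down with RNA UMIs, with rho of -0.29 to -0.16, whereas the ribosomal protein share had rho of -0.09 to 0.26 and no common sign. Barcode UMIs had rho of -0.07 to -0.01 with the mitochondrial share. Between barcodes, the recounted UMIs of DMS and MD had rho of 0.16 to 0.34, DMS and LH 0.21 to 0.33, DMS and AI 0.16 to 0.20, and MD and LH 0.12 to 0.27, in cells that share their library and depth. In sparse counts of this kind such values are descriptions and were given no test. The pairs with BLA, and those of AI with MD and LH, were not examined. RNA UMIs, with which the barcode UMIs of astrocytes had rho of 0.40 to 0.48, were not held fixed.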
